A study of Arabidopsis thaliana with 2 samples.

Results

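The immune mitogen-activated protein (MAP) kinase cascade of Arabidopsis thaliana was followed here through the transcripts of 10 genes, taken by gene identifier for their place in the cascade. The set was drawn up with earlier results of these data known. They are MEKK1 (AT4G08500) and MAPKKK5 (AT5G66850) at the top, MKK1 (AT4G26070), MKK2 (AT4G29810), MKK4 (AT1G51660) and MKK5 (AT3G21220) in the middle, and MPK3 (AT3G45640), MPK6 (AT2G43790), MPK4 (AT4G01370) and MPK11 (AT1G01560) at the bottom. All 10 were listed in both libraries, out of 23147 genes listed in at least 1. Messenger RNA was sequenced from untreated rosettes of 28-day-old plants, both genotypes in the Col-0 ecotype. A wild type library was compared with a library from a pbl19 null mutant that carries PBL19 C3A, tagged with GFP and HA and driven by the PBL19 promoter. C3A names a change of cysteine to alanine in PBL19. There was 1 library per genotype, so no difference below has a replicate check or a p-value. Effects of the null allele, of the cysteine change, of the tags and of the PBL19 transcript level cannot be told apart here, and a line with the unchanged transgene was not analysed here. How many plants made up a library and whether the transgenic line is a single insertion event are not given in the sources used here.

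A MAP kinase cascade is a relay of kinases at successive levels, in which a MAP kinase kinase kinase phosphorylates a MAP kinase kinase, which in turn phosphorylates a MAP kinase on a threonine and a tyrosine of its activation loop. In Arabidopsis, receptors of microbial patterns start a pair of such relays within minutes. In the first, MAPKKK3 and MAPKKK5 act through MKK4 and MKK5 on MPK3 and MPK6, which promote defence gene expression, ethylene and camalexin synthesis. In the second, MEKK1 acts through MKK1 and MKK2 on MPK4, and its loss sets off an immune reaction through the receptor SUMM2. PBL19 is a receptor-like cytoplasmic kinase of subfamily VII-4, whose members phosphorylate MAPKKK5 and MEKK1 below pattern receptors. The relay is switched by phosphorylation, which RNA sequencing does not measure, so the values below are transcript levels only.

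The site that is phosphorylated is shown first, since it is what the MAP kinases of the cascade have in common. The coding stretches below run 5′ to 3′, were read from the RefSeq annotation of TAIR10.1, and have the codons of the Thr-Glu-Tyr motif in capitals. MPK17, shown for contrast, has Thr-Asp-Tyr at this place.
MPK3: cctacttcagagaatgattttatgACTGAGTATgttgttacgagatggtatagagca
MPK6: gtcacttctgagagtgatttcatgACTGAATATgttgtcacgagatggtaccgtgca
MPK4: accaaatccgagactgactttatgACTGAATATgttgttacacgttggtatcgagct
MPK11: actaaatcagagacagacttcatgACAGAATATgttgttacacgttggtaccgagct
MPK17: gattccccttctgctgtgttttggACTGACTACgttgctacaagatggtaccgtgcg
The first codon in capitals encodes residue 196 of MPK3, 221 of MPK6, 201 of MPK4, 198 of MPK11 and 178 of MPK17. Of the 20 MAP kinases of the genome, 12 carry Thr-Glu-Tyr and 8 Thr-Asp-Tyr. MPK4 and MPK11 are close paralogs, with 85.3% of 1110 aligned coding bases identical. MPK3 and MPK6 share 70.1%, MKK1 and MKK2 68.6%, and MKK4 and MKK5 82.0% of their aligned coding bases. Stretches of 31 bases that could place a read in either gene were counted from every base of the transcripts, so neighbouring stretches overlap. They were few, with 1 shared between MPK4 and MPK11, 18 between MKK4 and MKK5, and 0 for the other pairs.

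Levels are given in FPKM, a count scaled to gene length and library size, with the wild type value first and the C3A value second. The deposited values are close to, but not exactly, the counts divided by the deposited lengths and library totals, and the length used to compute them is not given in the sources used here. The log2 ratio is that of FPKM + 1, C3A over wild type, and a gene is counted as higher or lower when this ratio passes 2-fold. Plain FPKM ratios are given with a 95% interval of their counts (exact, Clopper-Pearson), which covers counting error only: reads lacking molecular identifiers may be copies of each other, and differences between plants are not in it. For a sum of genes, the interval is that of the added counts, rescaled to the FPKM ratio. It takes no account of genes that differ in length, and so is approximate. The wild type library held 11937705 estimated counts and the C3A library 12001808. PBL19 itself rested on 163 and 11419 counts, or 6.68 and 466 FPKM, and the tables do not tell transgene reads from those of the native locus, which overlaps AT5G47060 on the opposite strand. Over all 19527 genes with at least 1 FPKM in either library, the median log2 ratio was 0.14, which is the shift the ratios below are to be read against. Of these genes, 61.7% had a log2 ratio above 0. The share of higher genes among those past 2-fold was 73.5% as deposited and 60.8% once the libraries were rescaled so that the median ratio was 1. Leaf markers were abundant in both libraries, from 614 to 23517 FPKM in Col-0 and from 319 to 15592 FPKM in C3A plants, with all 6 lower in the latter. Root markers were also present, none at 0, and 6 of 8 had a log2 ratio below 0. Of the 8, 3 were at least 2-fold lower (IRT1, PIN2 and EXPA7), against 2.85% of all genes, and 0 at least 2-fold higher. The summed level of the 8 was 297 FPKM in Col-0 against 315 FPKM in C3A plants. Most of it was AGP31, at 207 and 265 FPKM. The part of the root markers in the results was not tested. In rosettes, a change in the cells that make up the sample and a change in transcript per cell cannot be told apart.

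Of the 10 cascade genes, 9 had a higher level in the C3A library than in the wild type, and 3 of them, MPK11, MKK1 and MKK2, were at least 2-fold higher on the FPKM + 1 scale. None was at least 2-fold lower. Among all genes tested, 61.7% had a log2 ratio above 0, 7.89% were at least 2-fold higher and 2.85% at least 2-fold lower. The median log2 ratio of the 10 genes was 0.91, against 0.14 over all genes. Relative to the all-gene median, 9 of the 10 lay above it as deposited and under each alternative scaling, and with the median ratio set to 1 the members' median was 0.76. Their summed level was 1.94-fold higher in C3A plants (1.87 to 2.01), at 185 and 360 FPKM. The plain ratio also reached 2 for MKK4, whose interval spans 2.

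**Figure D1:**
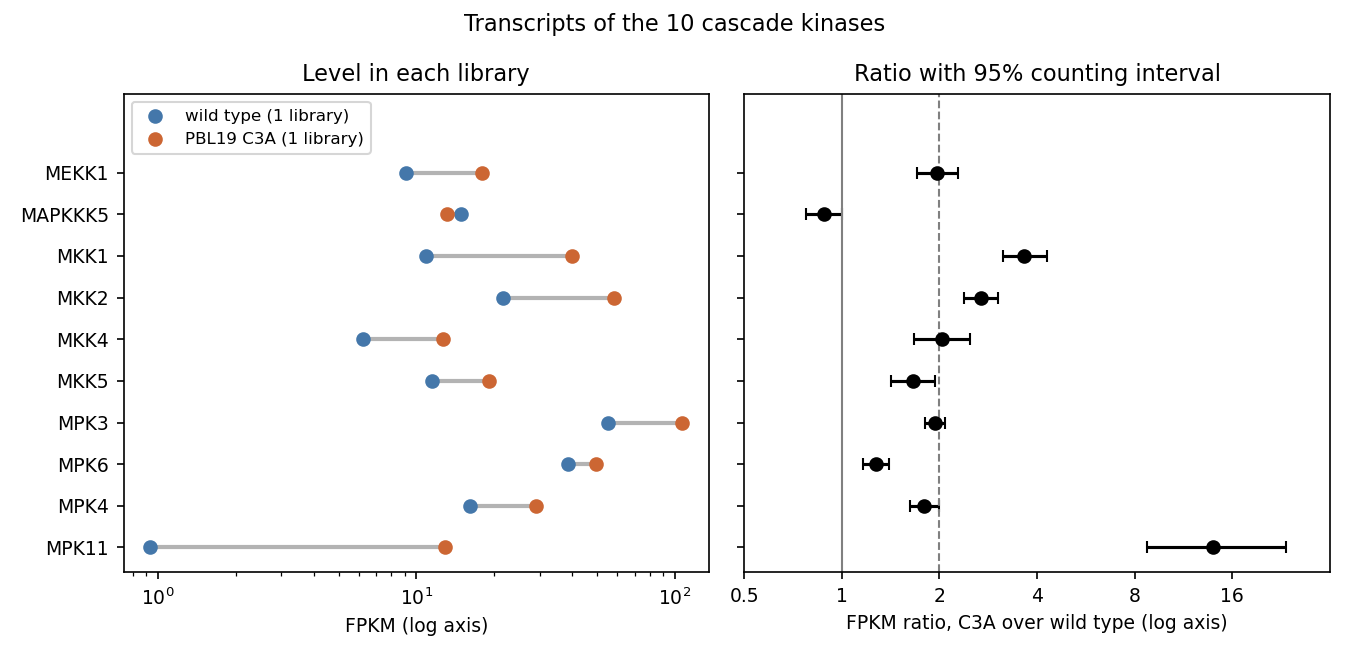
The 10 cascade kinases from the top of the relay (MEKK1) to the bottom (MPK11): the left panel shows FPKM in each library on a log axis, and the right panel the C3A to wild type FPKM ratio on a log axis with its 95% counting interval (bars), with lines at 1 and 2. MPK11 lies furthest to the right at 13.9, and the interval of MAPKKK5 alone reaches below 1.

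At the top of the relay the genes differed from each other. MEKK1, the kinase above MKK1 and MKK2, was at 9.11 and 17.9 FPKM, from 285 and 564 counts. It was 1.97-fold higher in the C3A library (1.70 to 2.28), with a log2 ratio of 0.90. MAPKKK5, the kinase above MKK4 and MKK5, was at 14.9 and 13.1 FPKM from 509 and 450 counts, the reverse order of the other members. Its ratio was 0.88 (0.773 to 1.0003), an interval whose upper end meets 1, with no rescaling. Its log2 ratio was -0.17, against 0.14 over all genes, and -0.32 with the median ratio set to 1. MAPKKK3, which acts alongside MAPKKK5 and is not among the 10, was at 22.2 and 22.9 FPKM. Summed over MAPKKK3 and MAPKKK5 the level was 37.2 and 36.1 FPKM, a ratio of 0.97 (0.89 to 1.06), also with no rescaling. MAPKKK5 made up 62.1% and 42.3% of the summed FPKM of MAPKKK5 and MEKK1.

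On chromosome 4 of TAIR10.1, MEKK1 occupies bases 5403671 to 5407320 of the minus strand and stands in tandem with MEKK2 at 5387351 to 5391575 and MEKK3 at 5383688 to 5387260. MEKK2 is required for the immune reaction that follows loss of the MEKK1 relay. MEKK3 stood apart from its neighbours, at 14.1 and 57.1 FPKM from 340 and 1402 estimated counts, 4.05-fold higher in the C3A library (3.59 to 4.57). MEKK2 was at 7.16 and 10.4 FPKM, a ratio of 1.46 (1.250 to 1.706), and its interval meets that of MEKK1 (1.704 to 2.278) at its end. MEKK3 therefore made up 46.4% and 66.8% of the summed FPKM of the 3 genes and MEKK2 23.6% and 12.2%, the rest being MEKK1. Reads of these genes are not assigned with certainty. All 3 have fractional counts, and 87.3% of the aligned coding bases of MEKK1 and MEKK2 are identical. Transcripts of MEKK1 and MEKK2 share 95 stretches of 31 bases, counted from every base and so overlapping each other. MEKK2 and MEKK3 share 64 such stretches, and 90 bases lie between their annotated ends, against 12095 between MEKK2 and MEKK1. MEKK2 also overlaps AT4G05545 on the opposite strand.

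In the middle of the relay, the kinases of the MPK4 branch differed most between the libraries. MKK1 was at 10.9 and 39.96 FPKM from 212 and 740 counts, 3.66-fold higher in the C3A library (3.14 to 4.28), with a log2 ratio of 1.78. MKK2, which acts redundantly with MKK1, was at 21.7 and 58.3 FPKM from 380 and 1032 counts, 2.69-fold higher (2.39 to 3.03), with a log2 ratio of 1.39. Both intervals lie wholly above 2. MKK4 was at 6.22 and 12.7 FPKM from 151 and 309 counts, with a ratio of 2.04 (1.67 to 2.49). MKK5, its partner, was at 11.5 and 19.1 FPKM from 259 and 427 counts, with a ratio of 1.66 (1.42 to 1.94). Their log2 ratios of 0.92 and 0.68 were under the 2-fold threshold. The summed level of MKK1 and MKK2 was 3.02-fold higher in the C3A library (2.75 to 3.31) and that of MKK4 and MKK5 1.79-fold higher (1.58 to 2.02), intervals that do not overlap. MKK2 was the more abundant of its pair in both libraries, with 66.5% and 59.3% of the summed FPKM, and so was MKK5, with 64.9% and 60.1%.

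At the bottom, MPK3, the MAP kinase whose transcript is best known to accumulate in immune responses, was the most abundant of all 20 MAP kinases in both libraries. It was at 55.4 and 107 FPKM from 1236 and 2408 counts, 1.94-fold higher in the C3A library (1.81 to 2.08), with a log2 ratio of 0.94. MPK6, its functionally overlapping partner, rested on 797 and 1022 counts, or 38.8 and 49.4 FPKM, and its ratio was 1.28 (1.16 to 1.40). The interval of MPK6 lies wholly below that of MPK3. The share of MPK3 in the summed FPKM of the pair was 58.8% and 68.5%, a difference of 9.64 percentage points. MPK4, which restrains salicylic acid responses, was at 16.1 and 29.0 FPKM from 554 and 1002 counts, with a ratio of 1.80 (1.620 to 1.999).

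MPK11, the close paralog of MPK4, had the largest ratio of the 10. In Col-0 it rested on 19 counts, or 0.93 FPKM, and in C3A plants on 250 counts, or 12.9 FPKM. This is a 13.9-fold higher level (8.72 to 23.5) and a log2 ratio of 2.85, higher than that of 98.9% of all genes tested. MPK11 was number 18 of the 20 MAP kinases by FPKM in the wild type and number 13 in the C3A library. It made up 5.46% and then 30.9% of the summed FPKM of MPK4 and MPK11, so MPK4 was the more abundant of the pair in both. By estimated counts, with no gene length, the shares were 3.32% (2.01 to 5.13) and 19.97% (17.8 to 22.3). The summed level of the pair was 2.46-fold higher (2.23 to 2.72, approximate as for all sums), from 573 and 1252 counts. MPK11 has 4 transcripts, and its deposited length was 1710 bases for Col-0 and 1603 bases for C3A. MKK1, with 5 transcripts, was at 1619 and 1539 bases. Where transcripts differ in length, such a shift means that the deposited estimate of their mix differed, and the tables do not give the transcripts singly.

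**Figure D2:**
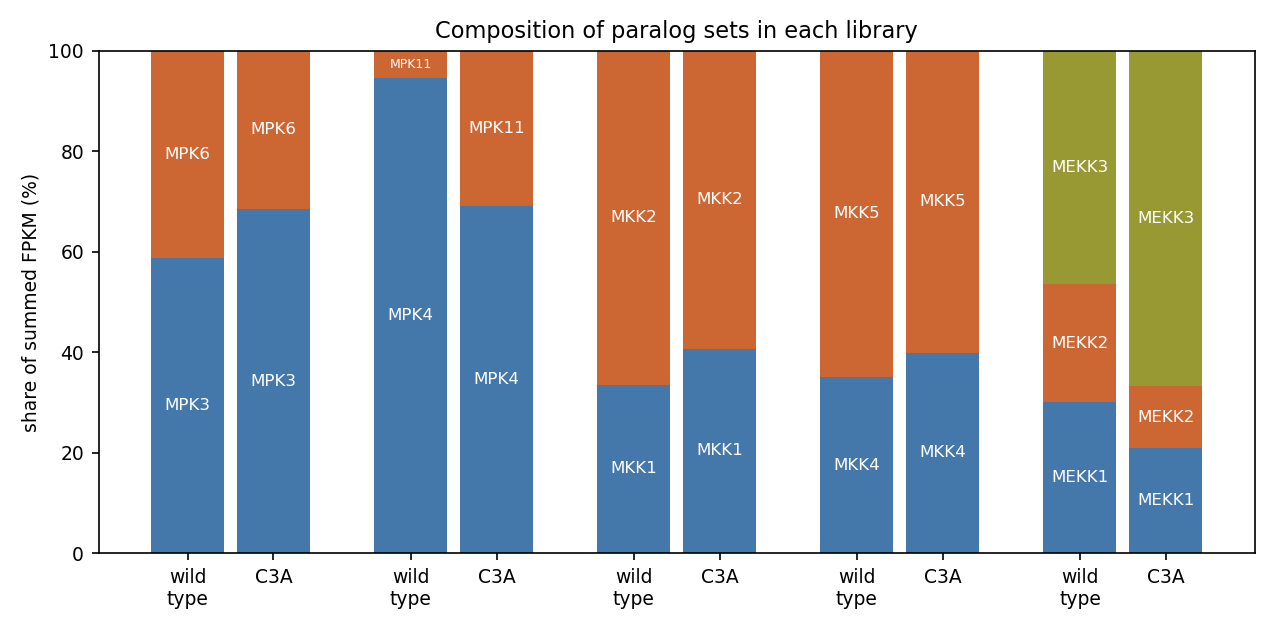
Each bar splits the summed FPKM of a set of related genes in 1 library into the shares of its members (vertical axis in %), with the wild type on the left and C3A on the right of each pair. MPK11 went from 5.46% to 30.9% of its pair and MEKK3 from 46.4% to 66.8% of its set, while the MKK pairs were more alike between libraries.

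The closest genes to MPK3 by level, measured as the distance over log2(FPKM + 1) in the 2 libraries, were AT2G25520 (56.2 and 107 FPKM), GPX2 (56.3 and 106 FPKM) and AT5G03850 (52.2 and 107 FPKM). The closest to MPK11 were AT5G44570 (0.80 and 13.8 FPKM), AT4G09770 (0.88 and 11.4 FPKM) and HR3 (0.71 and 11.97 FPKM). With 2 libraries such likeness means similar levels in each and no more.

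Several members share their locus with another annotated gene, and whether the reads were counted by strand is not given in the sources used here. Of the 10 genes, 6 overlap another gene, 5 of them on the opposite strand, and MPK11, MKK2, MEKK1 and MAPKKK5 overlap none. MKK1 shares 22 bases with ABI1, a phosphatase of abscisic acid signalling, which was at 47.9 and 40.7 FPKM. MPK4 shares 929 of its 3383 bases with AT4G01380, at 3.15 and 1.09 FPKM from 23 and 8 counts, and 100 bases with AT4G01390, at 37.3 and 15.98 FPKM. MKK5 shares 459 bases with 4CL5, at 6.68 and 5.62 FPKM. AT3G45645, which overlaps MPK3, held 0 and 1 counts, and AT1G51670, which overlaps MKK4 on the same strand, 4 and 9 counts. MPK6 shares 45 bases with AT2G43795, which held 0 and 2 counts, and 267 bases with AT2G09500, which was listed in neither library. How far reads of overlapping genes enter the members' values was not tested. MPK6, MKK5 and MEKK1 have fractional estimated counts, so some of their reads were shared out between genes or transcripts.

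The rest of the MAP kinase family serves as the comparison for MPK3, MPK6, MPK4 and MPK11. Of the 16 other MAP kinases, 15 had at least 1 FPKM. Of these, 0 passed 2-fold in either direction (against 7.89% upwards and 2.85% downwards over all genes), 5 lay above 0 and 9 below. Their median log2 ratio was -0.11, below the 0.14 of all genes, of which 61.7% lay above 0. The 8 with Thr-Asp-Tyr, also called group D, had 6 below 0 and a median of -0.19, and their summed level was 209 and 205 FPKM. Above 0 in this group were MPK17 and MPK15. MPK17, number 2 of the 20 by FPKM in both libraries, was at 44.3 and 66.1 FPKM, a ratio of 1.49 (1.37 to 1.62). MPK15 was at 11.3 and 11.6 FPKM. MPK12, a guard cell kinase, was at 10.7 and 6.21 FPKM, a ratio of 0.58 (0.45 to 0.75) and the lowest log2 ratio of the 20, at -0.69. MPK1 and MPK2, of group C, were at 9.52 and 16.5 FPKM and at 19.9 and 31.2 FPKM, both with fractional counts. Their ratios were 1.73 (1.43 to 2.09) and 1.57 (1.38 to 1.79). The ratios of MPK17, MPK1 and MPK2 were thus all above the 1.28 of MPK6. MPK14 was at 0.40 and 1.26 FPKM, from 8 and 25 counts.

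Among the 6 other MAP kinase kinases, MKK8 and MKK10 were listed in neither library and MKK7 was under 1 FPKM in both. MKK9, which acts in ethylene signalling, was at 14.2 and 23.5 FPKM, a ratio of 1.66 (1.42 to 1.94). MKK6, a kinase of cell division, was at 3.77 and 5.13 FPKM, and MKK3 at 6.29 and 6.72 FPKM, with intervals of 0.98 to 1.90 and 0.84 to 1.36 that include 1. Of 18 other MEKK-type kinases, 12 had at least 1 FPKM, with a median log2 ratio of 0.07. MEKK3 alone was at least 2-fold higher and 0 were lower, against 7.89% and 2.85% of all genes. ANP1 and ANP3, which act in cytokinesis, were at 3.04 and 1.86 FPKM and at 4.16 and 5.88 FPKM. MKK3 and ANP1 overlap genes on the opposite strand, and MKK3 has fractional counts.

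**Figure D3:**
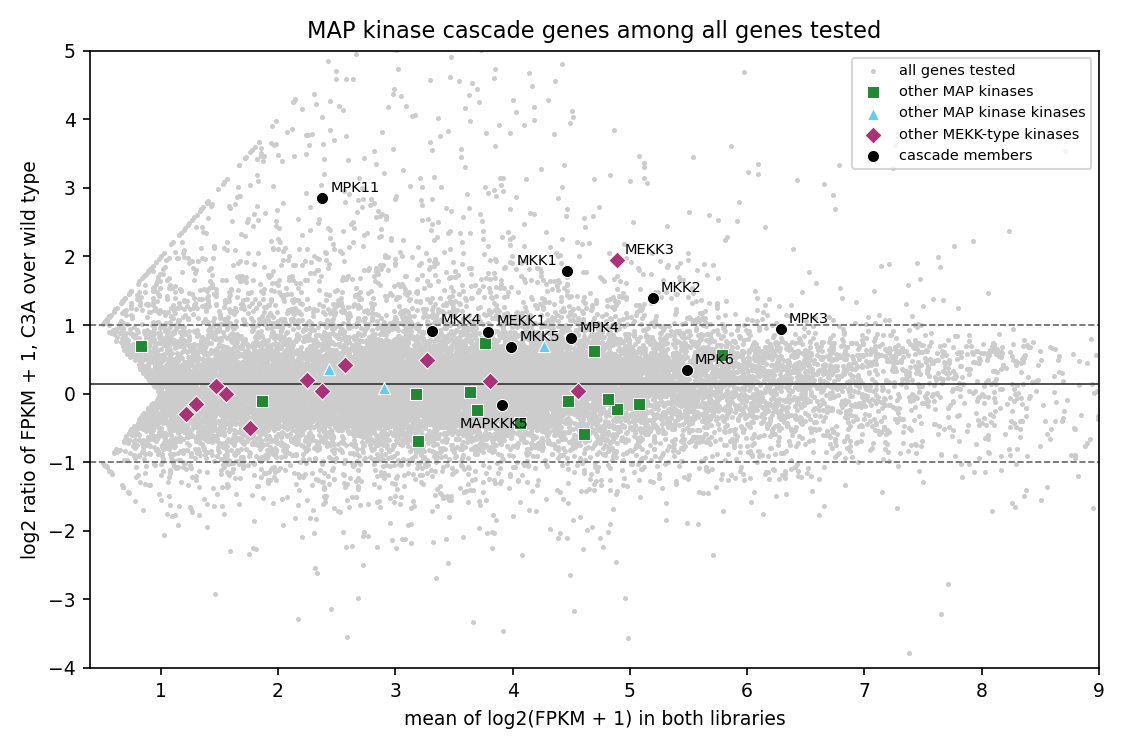
Each point is a gene: the horizontal axis is the mean of log2(FPKM + 1) over both libraries, the vertical axis the log2 ratio of FPKM + 1, with dashed lines at 2-fold and a solid line at the median of all genes, 0.14; 196 genes outside the axes are not drawn. Of the cascade members MPK11, MKK1 and MKK2 lie above the upper dashed line, as does MEKK3, while the other MAP kinases lie between the lines.

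Genes that act directly around the cascade were counted in the same way. Of 14 kinases and receptors above the cascade, 6 passed 2-fold upwards and 0 downwards, against 7.89% and 2.85% of all genes. The median of the 14 was 0.83. The count of 6 was 3 with a pseudocount of 5 FPKM and 4 with the median ratio set to 1. PBL19 is 1 of the 6. PBL39, PBL37 and PBL20, relatives of PBL19 in the same subfamily, were at 4.83 and 18.9 FPKM, at 6.56 and 18.5 FPKM, and at 0.05 and 1.94 FPKM, the first value of PBL20 resting on 1 count. PBL37 has fractional counts. PBL40 of the same subfamily was at 8.15 and 18.1 FPKM, and PBL38 was the 1 gene of the 14 with a log2 ratio below 0, at 4.77 and 2.51 FPKM, a ratio of 0.53 (0.37 to 0.74). Of 10 phosphatases that act on MAP kinases, 8 had at least 1 FPKM and 0 passed 2-fold in either direction, and their median was 0.46. MKP1, which inactivates MPK3 and MPK6, was at 16.4 and 29.8 FPKM, a ratio of 1.82 (1.65 to 2.01). MKP2 was at 12.3 and 19.6 FPKM, IBR5 at 10.97 and 17.5 FPKM, and AP2C4, which overlaps AT1G67830 on the opposite strand, at 1.16 and 2.36 FPKM. AP2C1, which dephosphorylates MPK4 and MPK6, was at 7.94 and 7.53 FPKM, a ratio of 0.95 with an interval of 0.76 to 1.18.

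Of 21 substrates and partners of the MAP kinases, 4 passed 2-fold upwards and 1 downwards, against 7.89% and 2.85% of all genes. The median of the 21 was 0.56. The count of 4 was 2 with a pseudocount of 5 FPKM and 2 with the median ratio set to 1. WRKY46, a transcription factor phosphorylated by MPK3, was at 0.99 and 35.6 FPKM from 16 and 578 counts, 35.9-fold higher (21.9 to 63.3). WRKY25, which binds the MPK4 partner MKS1, was at 7.13 and 35.2 FPKM, 4.94-fold higher (4.14 to 5.92). MKS1 itself was at 10.9 and 25.3 FPKM, a ratio of 2.33 (1.88 to 2.89), and overlaps other genes on the opposite strand. WRKY33, which MPK3 and MPK6 phosphorylate to induce camalexin synthesis, was at 42.3 and 62.7 FPKM, a ratio of 1.48 (1.37 to 1.61), and also overlaps other genes. TZF9, a zinc finger protein phosphorylated by MPK3 and MPK6, was at 7.54 and 16.1 FPKM, which is just past the threshold on the FPKM + 1 scale, and overlaps 2 genes on the opposite strand. ERF6, an ethylene response factor phosphorylated by MPK3 and MPK6, was the gene past 2-fold downwards, at 32.2 and 9.16 FPKM, 3.52-fold lower (2.92 to 4.25). Of the 21, 17 had a log2 ratio above 0 and 4 below, which were ERF6, ACS6, ERF104 and SUMM2. ACS6 was at 20.1 and 11.6 FPKM, a ratio of 0.58 (0.49 to 0.67). ERF104 was at 40.65 and 31.7 FPKM, a ratio of 0.78 (0.69 to 0.87). CRCK3, the MPK4 substrate that SUMM2 monitors, was at 9.96 and 19.3 FPKM, a ratio of 1.94 (1.66 to 2.26). SUMM2 was at 4.09 and 2.98 FPKM, a ratio of 0.73 (0.56 to 0.95), and overlaps AT1G12290 on the same strand.

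Among 11 genes used as readouts of pattern signalling, 10 had at least 1 FPKM, 3 passed 2-fold upwards and 0 downwards, and their median was 0.63. The count of 3 was 1 with a pseudocount of 5 FPKM and 5 with a pseudocount of 0.1 FPKM. FRK1, a receptor kinase gene induced by flagellin, rested on 7 and 308 counts, or 0.21 and 9.38 FPKM, and overlaps a gene on the opposite strand. CYP81F2, an enzyme of indole glucosinolate modification, was at 0.94 and 6.0 FPKM, 6.38-fold higher (3.97 to 10.8). WRKY40, a transcription factor that restrains defence genes, was at 7.85 and 17.5 FPKM and overlaps AT1G80850 on the opposite strand. ZAT12, a zinc finger factor of oxidative stress responses, was at 5.10 and 10.5 FPKM. Of the 10 readout genes, 9 had a log2 ratio above 0 and 1 below, which was WRKY22, at 4.81 and 4.53 FPKM. ZAT10 differed little, with 18.3 FPKM in Col-0, 19.7 FPKM in C3A plants and a ratio of 1.08 (0.92 to 1.27). For NHL10, 7.34 against 9.94 FPKM gave a ratio of 1.35 (1.02 to 1.80). WRKY29, which overlaps AT4G23560 on the opposite strand, went from 2.71 FPKM in Col-0 to 5.74 FPKM in C3A plants. Its plain ratio was 2.12 (1.47 to 3.09), while its log2 ratio of 0.86 stayed under the 2-fold threshold. PROPEP3, with 1.01 and 1.18 FPKM, rested on only 6 and 7 counts. Its interval of 0.34 to 4.21 is too wide to tell whether it differed. The members of each of these lists were chosen for their roles, with earlier results of these data known. The shares of all genes past 2-fold given above, 7.89% and 2.85%, are the level to read the counts of the lists against.

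**Figure D4:**
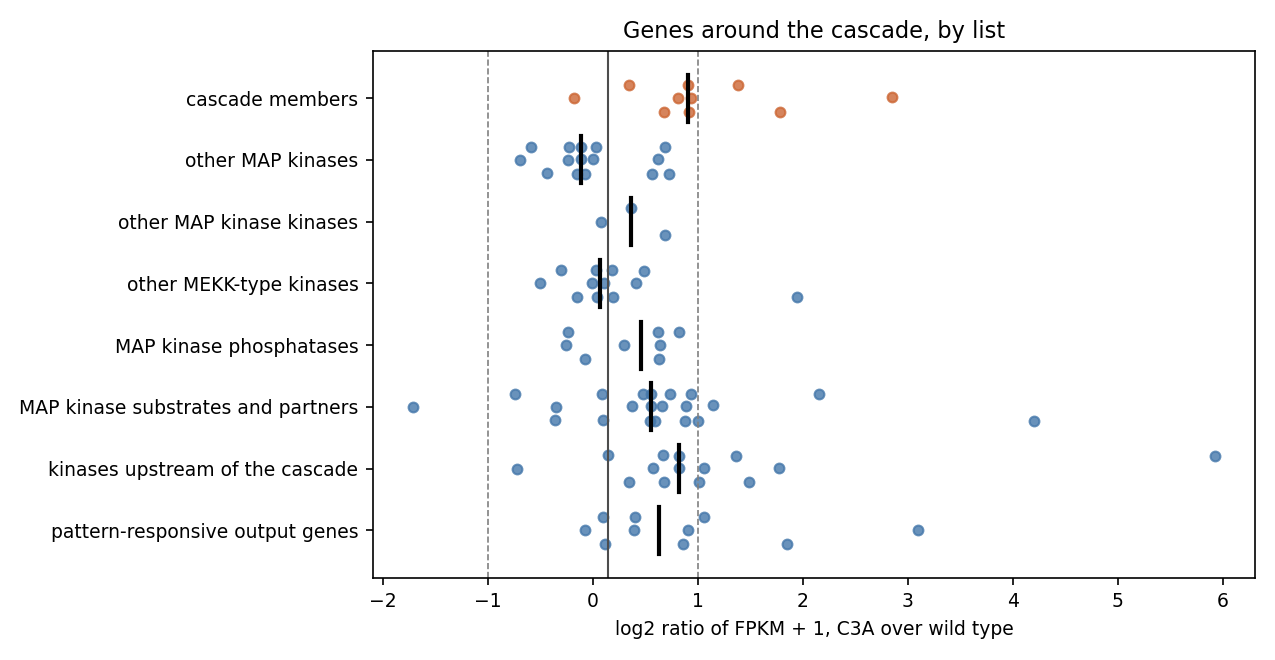
Each point is a gene with at least 1 FPKM in either library, placed by its log2 ratio of FPKM + 1 (horizontal axis) and by list (vertical axis, with a small vertical offset for legibility); thick bars are list medians, dashed lines 2-fold, and the solid line the median of all genes, 0.14. The median of the cascade members, 0.91, lies nearest to those of the upstream kinases, 0.83, and the readout genes, 0.63. It lies furthest from that of the other MAP kinases, -0.11.

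The sequences before the annotated starts of the 3 genes past 2-fold are shown because these members had the largest ratios. Each stretch covers the 250 bases up to the base before the start, 5′ to 3′ on the strand of the gene (TAIR10.1). Capitals mark W-boxes, the sites of WRKY factors, searched as TTGACC or TTGACT on both strands, so that a match on the opposite strand reads GGTCAA or AGTCAA. The stretches lie at chr1:201853-202102 on the plus strand for MPK11, chr4:13217225-13217474 on the plus strand for MKK1 and chr4:14595385-14595634 on the minus strand for MKK2.
MPK11: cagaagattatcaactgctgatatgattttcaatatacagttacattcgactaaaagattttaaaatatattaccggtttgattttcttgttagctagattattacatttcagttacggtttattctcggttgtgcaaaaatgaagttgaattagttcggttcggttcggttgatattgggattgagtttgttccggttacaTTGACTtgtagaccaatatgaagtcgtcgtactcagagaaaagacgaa
MKK1: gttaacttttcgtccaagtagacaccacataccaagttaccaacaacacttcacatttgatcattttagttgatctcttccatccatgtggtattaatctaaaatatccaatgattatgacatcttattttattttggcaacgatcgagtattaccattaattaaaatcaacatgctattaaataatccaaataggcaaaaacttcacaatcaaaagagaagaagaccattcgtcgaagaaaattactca
MKK2: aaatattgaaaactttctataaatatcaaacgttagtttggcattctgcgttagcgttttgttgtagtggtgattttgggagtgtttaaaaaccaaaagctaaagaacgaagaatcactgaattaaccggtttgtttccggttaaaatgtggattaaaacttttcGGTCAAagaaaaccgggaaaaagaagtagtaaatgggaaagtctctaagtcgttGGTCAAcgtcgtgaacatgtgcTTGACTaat
MPK11 has 1 W-box, 48 bases before the start, MKK2 has 3, and MKK1 has 0 in this window. In the window from 250 bases before to 50 bases after the start, 5 of the 10 members have at least 1 W-box, against 32.4% of 27443 protein-coding genes. The 5 are MPK6, MPK4, MPK11, MKK2 and MAPKKK5, so that 2 of the 3 genes past 2-fold have a match, and so does MAPKKK5, the member that was lower. At least 3 W-boxes, as in MPK6 and MKK2, were found in 1.48% of all genes. In the best local alignment of the bases before the starts of MPK4 and MPK11, positions -48 to -6 of MPK11 aligned with positions -250 to -195 of MPK4, with gaps on the MPK11 side, over 43 aligned bases of which 38 were identical. The aligned bases hold a W-box of each gene, and on the MPK4 side they begin at the edge of the window searched. The distance of a match from the start depends on where that start is annotated. The CGCG core of sites bound by CAMTA factors was found in 3 members, MPK4, MKK4 and MEKK1, against 12.95% of all genes. The TGA factor core TGACG and the G-box CACGTG were found in 0 members, against 23.1% and 7.68% of all genes. TTGACG, a W-box variant that holds TGACG, was not searched as a W-box, and matches of different motifs may share bases. A match describes letters in a window and says nothing about binding.

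**Figure D5:**
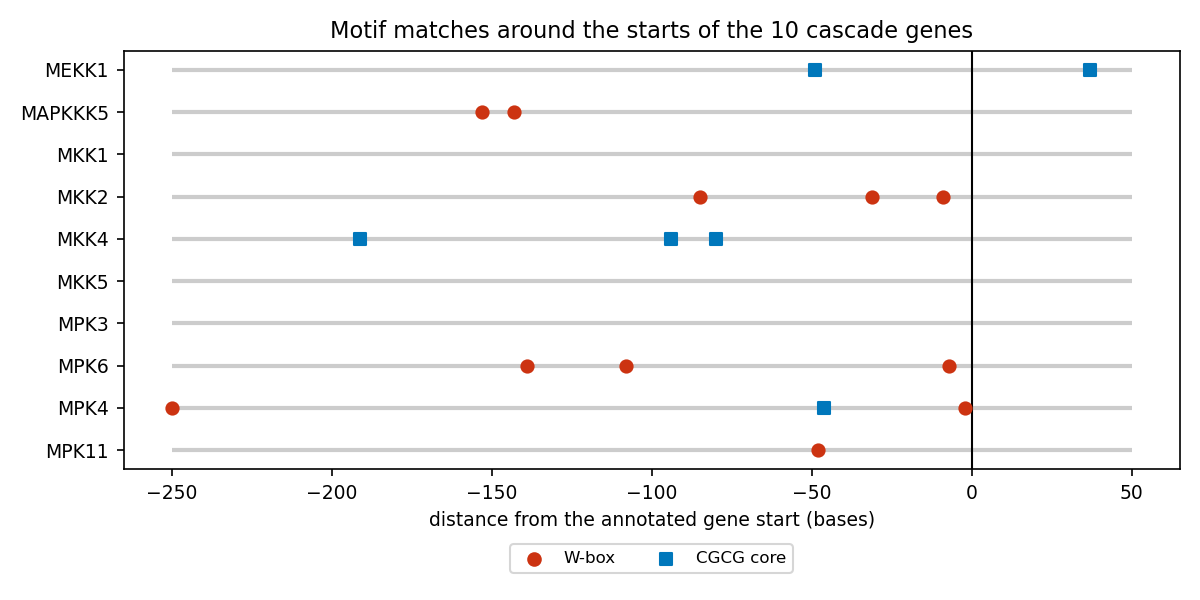
Each row is a cascade gene, with the window from 250 bases before to 50 bases after the annotated start as a grey line, and each marker is the first base of a motif match on either strand (horizontal axis, bases from the start). W-boxes (circles) lie in 5 genes and CGCG cores (squares) in 3, and MKK1, MKK5 and MPK3 have neither.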

How the data were processed

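The reads were processed before deposit with Trimmomatic 0.36 and HISAT against TAIR10, per the submitters' processing notes; neither the quantification tool nor the use of strand is named in them. Per the file headers, every gene has an estimated (expected) count, a length and an FPKM value. The deposited FPKM values were used unscaled, and an unlisted gene was set to 0. The estimated counts deposited by the authors were whole numbers (tolerance 1e-09) in 89.1% of the genes listed for Col-0 and 88.9% of those listed for C3A, and were rounded for intervals and TMM factors.

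Ratios used a pseudocount of 1 FPKM and genes with at least 1 FPKM in either library, and understate differences of low genes. With 1 library per genotype there was no test. The 10 members and all lists were chosen with earlier results of these data known. Named were the members, PBL19 and 7 fixed partners, the up to 4 genes of each pathway list with the largest absolute log2 ratios, and the 3 nearest genes to MPK3 and MPK11. Other genes named were chosen after their values were seen, as was the split of MAP kinases by activation loop. Examples are MAPKKK3, MKK7, MKK8, MKK10, MPK17, TZF9, ACS6, ERF104, WRKY22, WRKY29, NHL10, ZAT10, PROPEP3, PBL38, PBL40 and neighbouring genes.

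Gene models and sequences come from RefSeq TAIR10.1. The tables hold no coordinates, and all 12698 genes with a single transcript in both had the reference length (tolerance 0.01 bases). Python 3.11.15, pandas 2.3.3, numpy 2.4.6, scipy 1.17.1, matplotlib 3.10.9, R 4.3.3 and edgeR 4.0.16 (TMM factors, for an alternative only) were used. The ratio, the 2-fold rule and the counting interval were tested on simulated counts with known folds and counting error only. The other steps were not tested in this way.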

Additional observations from a re-analysis of the deposited data

How the results depend on the processing

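The alternatives were another pseudocount (0.1 or 5 FPKM), another minimum (5 FPKM, or none), rescaling to a median ratio of 1 or without the 100 most abundant genes, TMM-scaled counts, counts with no gene length, and leaving out genes unlisted in 1 library. Of the 10 members, 3 were at least 2-fold higher under each alternative except the pseudocount of 0.1, where MKK4 made 4, and 0 were lower under any. In each, 9 of 10 members lay above the median of all genes, and the members' median ran from 0.69 to 0.96. All genes past 2-fold numbered 1541 higher and 557 lower as deposited, 735 and 243 with a pseudocount of 5, 2067 and 911 with 0.1, and 1198 and 773 with the median ratio set to 1. The log2 ratio of MPK11 ran from 1.60 to 3.66 with the pseudocount. From counts with no gene length, the MPK3 share was 9.41 points higher and the MEKK2 share 13.6 points lower in C3A plants. Counts of higher genes in the lists moved in 6 cases by over 1.5 times. With a pseudocount of 0.1 they were 1 of the other MAP kinases and 5 of the readout genes. With a pseudocount of 5 they were 2 substrates and partners, 3 upstream kinases and 1 readout gene. With the median ratio set to 1 they were 2 substrates and partners. The cause of these moves was not tested. No paired analysis was possible because each genotype has 1 library, and no library could be left out for the same reason. At this depth the wild type level of MPK11 rests on 19 counts.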

Other observations

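MKK4, MKK5, MPK3 and MPK6 also act, below the kinase YDA, in the patterning of stomata, and markers of stomatal precursors and guard cells were measured as a list of 9. Of these, 4 had a log2 ratio above 0 and 5 below, with a median of -0.18, where 61.7% of all genes tested lay above 0. The genes named here were chosen after their values were seen. EPF2, a peptide of early stomatal precursors, rested on 3 and 46 counts, or 0.31 and 4.71 FPKM, a ratio of 15.2 (4.88 to 76.4). TMM, a receptor-like protein of the same lineage, was at 3.55 and 7.10 FPKM, MUTE at 0.54 and 1.43 FPKM from 6 and 16 counts, and BASL at 0.85 and 1.52 FPKM. SPCH, the transcription factor that starts the lineage, was measured as a substrate of MPK3 and MPK6 and was at 1.25 and 3.13 FPKM from 27 and 67 counts. KAT1, a potassium channel of mature guard cells, was at 8.42 and 3.37 FPKM, and MYB60, a guard cell transcription factor, at 8.54 and 4.98 FPKM. YDA itself was at 12.1 and 13.9 FPKM, and MPK12, the guard cell MAP kinase, was lower as given above. FAMA, which acts late in the lineage, was at 9.96 and 7.27 FPKM, EPF1 at 1.57 and 0.98 FPKM and GC1 at 82.9 and 73.2 FPKM. Of this list of 9, EPF2 alone passed 2-fold upwards and KAT1 alone downwards, against 7.89% and 2.85% of all genes tested.

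Common reference genes were not all level between the libraries. PEX4 and ACT2 had log2 ratios of 0.02 and 0.07, under the all-gene median, and UBQ10 1.05, at 813 and 1690 FPKM. All 7 lay above 0, with a median of 0.26, and so did 61.7% of all genes tested.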
